A study of Mus musculus with 6 samples.

Results

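The genes described here are the nuclear-encoded genes of oxidative phosphorylation in mouse intestinal tumor organoids, which are 3-dimensional gel cultures of tumor epithelial cells. They were chosen by symbol: names that start with Nduf, Uqcr, Atp5 or Cox4 to Cox8, together with Sdha, Sdhb, Sdhc and Sdhd. Of 36172 rows in the expression table, 92 had such a symbol after 1 pseudogene row was left out. Of these, 82 reached 4 rpkm (reads per kilobase of transcript, scaled to the mapped reads of a library) in 1 library or more and were kept, 10 were not, and all 82 enter the counts below. Complex I took 42 of them, complex II 4, complex III 8, complex IV 12 and complex V, the ATP synthase, 16. The study compared poly(A) RNA of tumor organoids from C57BL/6 mice aged 15 to 20 weeks with the Apc(D716) truncation whose other Apc copy was lost, so every group carries the same Apc lesion. The groups were p53(+/+), p53(flox/flox) and p53(M/M), written below as Trp53 +/+, Trp53 flox/flox and Trp53 R270H/R270H (or the mutant). Each had 2 libraries, from different mice. The floxed allele holds the R270H missense mutation behind a stop cassette and is null until recombined. In the Trp53 R270H/R270H mice, tamoxifen had activated a villin-driven CreER in intestinal epithelium, so that both alleles expressed the mutant protein. Each comparison asked whether loss of p53 or its missense mutation goes with a different level of these genes.

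As background, the respiratory chain sits in the inner mitochondrial membrane. Complex I takes electrons from NADH and complex II from succinate, complex III passes them to cytochrome c, complex IV passes them to oxygen, and complex V uses the resulting proton gradient to make ATP. Most subunits are encoded in the nucleus, and the few encoded by mitochondrial DNA were not analysed here. Wild-type p53 is known to act on respiration through a small number of targets, among them the complex IV assembly factor Sco2. Wnt-driven intestinal tumor cells are known for high glycolysis alongside active respiration.

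The libraries were not equally reproducible, which bears on every comparison. On the log2(rpkm + 1) scale, the SD of replicates 1 and 2 had a median of 0.046 in Trp53 +/+, 0.25 in Trp53 flox/flox and 0.062 in the mutant over all 10042 genes that passed the filter. Over the 82 oxidative phosphorylation genes the median SD was 0.046, 0.43 and 0.14. Trp53 flox/flox replicate 1 was above replicate 2 in 81 of the 82 genes, by a median log2 difference of 0.60, while Trp53 R270H/R270H replicate 1 was above its replicate 2 in 17 of 82. Both libraries of a genotype are therefore given singly, and results that rest on Trp53 flox/flox replicate 1 are also given without it. Trp53 itself, the check of the genotypes, was at 75.9 and 74.3 rpkm in Trp53 +/+, 1.73 and 2.48 in Trp53 flox/flox and 72.8 and 82.7 in the mutant. All 10 markers of intestinal epithelium reached 4 rpkm, against 0 of 7 fibroblast, 2 of 5 endothelial, 1 of 7 blood cell and 1 of 6 muscle markers. The summed epithelial markers moved with the respiratory genes, with 2895 to 2958 rpkm for Trp53 +/+, 4250 to 4609 for Trp53 flox/flox and 2368 to 2550 for the mutant, and their part in the results was not tested. The summed blood cell markers were at 15.9 to 16.2, 8.06 to 17.1 and 8.22 to 8.41 rpkm, where 7 markers at the floor of the table sum to 7. The summed endothelial markers, with a floor of 5, were at 15.9 to 16.3, 5.0 to 27.7 and 5.13 to 5.20 rpkm, with Emcn, Kdr and Pecam1 at the floor in all 6 libraries, and the part of both lists in the results was not tested. The table holds rpkm without read counts, and library depth was not determined here. In these bulk samples, fewer cells of a type and less RNA per cell cannot be told apart, and rpkm shows a share of each library rather than an amount per cell.

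Respiratory genes were among the abundant transcripts of all 3 genotypes. The 82 genes summed to 8584 and 8362 rpkm in Trp53 +/+, 13816 and 9309 in Trp53 flox/flox, and 7016 and 7699 in the mutant, which was 2.08%, 2.06%, 2.85%, 2.25%, 1.86% and 1.97% of all rpkm in each table column. In complexes II to V the highest means over the 6 libraries were those of Atp5b in complex V (925 rpkm), Cox4i1 in complex IV (377 rpkm), Uqcrh in complex III (189 rpkm) and Sdhd in complex II (157 rpkm). The lowest of all were Ndufaf5 (3.69 rpkm), an assembly factor, and Atp5s (5.63 rpkm). These stood just inside the filter with highest values of 5.84 and 6.05 rpkm, and Ndufaf6, whose highest value was 3.20 rpkm, stood just outside it.

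Where a subunit has tissue-specific isoforms, the organoids used the widely expressed form. Cox4i2, Cox6a2, Cox7b2, Cox8b and Cox8c, forms known from lung, muscle, testis or brown fat, were at the floor of 1 rpkm in all 6 libraries, as was Atp5l2. Their counterparts Cox4i1, Cox6a1, Cox7b and Cox8a ranged from 23.9 to 557 rpkm. Cox7a1, the heart and muscle form, reached 1.02 rpkm in 1 library, whereas Cox7a2 was between 98.4 and 181 rpkm in all 6. Cox6b2 was listed at 1.71 and 2.09 rpkm in Trp53 +/+ and at the floor elsewhere, and Cox6b1 was at 231 to 388 rpkm. Ndufa4l2, a hypoxia-responsive relative of Ndufa4, was listed at 1.36 and 1.33 rpkm in Trp53 R270H/R270H and at the floor elsewhere, and Ndufa4 was at 202 rpkm or above in every library. No isoform replaced another between genotypes at these levels.

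Seen across the whole set, the genotypes had an order. In 32 of the 82 genes (39.0%) both Trp53 flox/flox libraries were above both Trp53 +/+ libraries, and these were above both mutant libraries. This order held in 7.88% of all genes tested. The opposite order held in 0 of the 82 genes and in 12.2% of all genes. Relative to the Trp53 +/+ mean, the median log2 difference of the 82 genes was 0.74 and 0.11 in the Trp53 flox/flox libraries and -0.31 and -0.15 in the mutant libraries, where all genes together gave values between -0.04 and 0.04. Trp53 flox/flox replicate 2 was thus nearer to Trp53 +/+ than to its own partner.

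**Figure D1:**
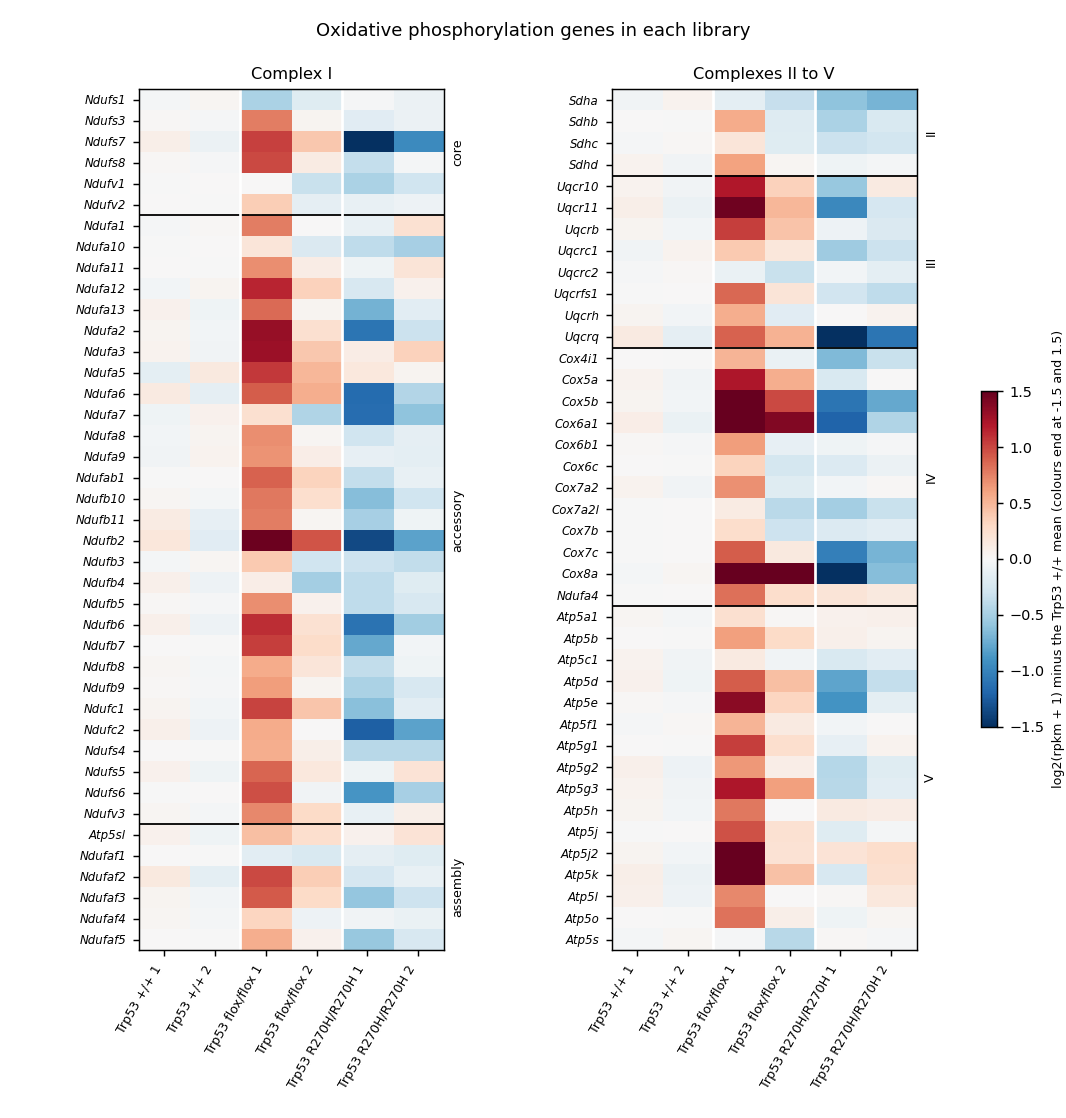
Each row is a gene, with 1 gene not shown, and each column a library, and the colour gives log2(rpkm + 1) minus the mean of the 2 Trp53 +/+ libraries, with colours ending at -1.5 and 1.5. Trp53 flox/flox replicate 1 is red in most rows, replicate 2 is paler, and both Trp53 R270H/R270H libraries are blue in most rows of complexes I to IV and near white in most rows of complex V.

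Single genes were tested with limma's moderated test on log2(rpkm + 1) over all 10042 genes, with a Benjamini-Hochberg adjusted p under 0.05 as the threshold. The 3 comparisons share their groups, so they are not independent of each other. With 2 libraries a group, an exact two-sided permutation test of 1 gene cannot give a p below 0.333, and the limma test gains its precision from the spread pooled over genotypes and genes.

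Mutant p53 was compared with wild-type p53 first. In Trp53 R270H/R270H against Trp53 +/+, 68 of the 82 differences were negative and 14 positive, with a median of -0.22 against 0.03 for all genes. Both mutant libraries were below both Trp53 +/+ libraries in 55 of 82 genes (67.1%), against 37.6% of all genes, and above both in 7 (8.54%), against 44.2%. Few of these differences passed the test: Sdha fell and 0 genes rose, where 6.36% of all genes were called lower and 5.86% higher. An unadjusted limma p under 0.05 was found for 14 of the 82 genes, against 3209 of all 10042 genes. The spread of the Trp53 flox/flox libraries enters the estimate of error in this test. Without Trp53 flox/flox replicate 1 limma called 32 of the 82 genes lower (25.8% of all genes) and 2, Atp5j2 and Ndufa4, higher (31.2% of all genes).

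Loss of p53 was compared with wild-type p53 next. In Trp53 flox/flox against Trp53 +/+, 69 differences were positive and 13 negative, with a median of 0.40 against -0.02 for all genes. Both libraries were above both Trp53 +/+ libraries in 49 of 82 genes, against 30.6% of all genes, and below both in 5, against 33.9%. The complex IV subunits Cox6a1, Cox8a and Cox5b rose and 0 genes fell, where limma called 4.38% of all genes higher and 6.90% lower. For 22 of the 82 genes the unadjusted limma p was under 0.05, against 3489 of all 10042 genes. Leaving out either library of another genotype took away most or all of these calls, and most or all calls higher over all genes with them. Without Trp53 flox/flox replicate 1 the median was 0.11, and limma called 10 of the 82 genes higher (19.1% of all genes) and 11 lower (21.3% of all genes).

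The 2 genotypes without wild-type p53 differed most. In Trp53 R270H/R270H against Trp53 flox/flox, 78 of 82 differences were negative, with a median of -0.68 against 0.03 for all genes. Both mutant libraries were below both Trp53 flox/flox libraries in 60 of 82 genes, against 31.2% of all genes, and above both in 1, Ndufs1, against 36.8%. The unadjusted limma p was under 0.05 for 45 of the 82 genes, against 4269 of all 10042 genes. Limma called 22 of the 82 genes lower, against 11.0% of all genes, and 0 higher, against 13.6%. In 20 of the 22 called genes the Trp53 +/+ libraries lay between the other genotypes without overlap. The 22 were picked by a difference in these same libraries, and the share among all genes called lower was not determined. These calls rest on every library of the other genotypes: without Trp53 +/+ replicate 1 or replicate 2 there were 3 of 82 (1.19% of all genes), without mutant replicate 1 there was 1 (0.299% of all genes) and without mutant replicate 2 there were 3 (0.976% of all genes). All 22 were called again without Trp53 flox/flox replicate 1, when 30 were called lower (23.9% of all genes) and 2, Atp5s and Uqcrc2, higher (29.1% of all genes), and the median was -0.32.

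**Figure D2:**
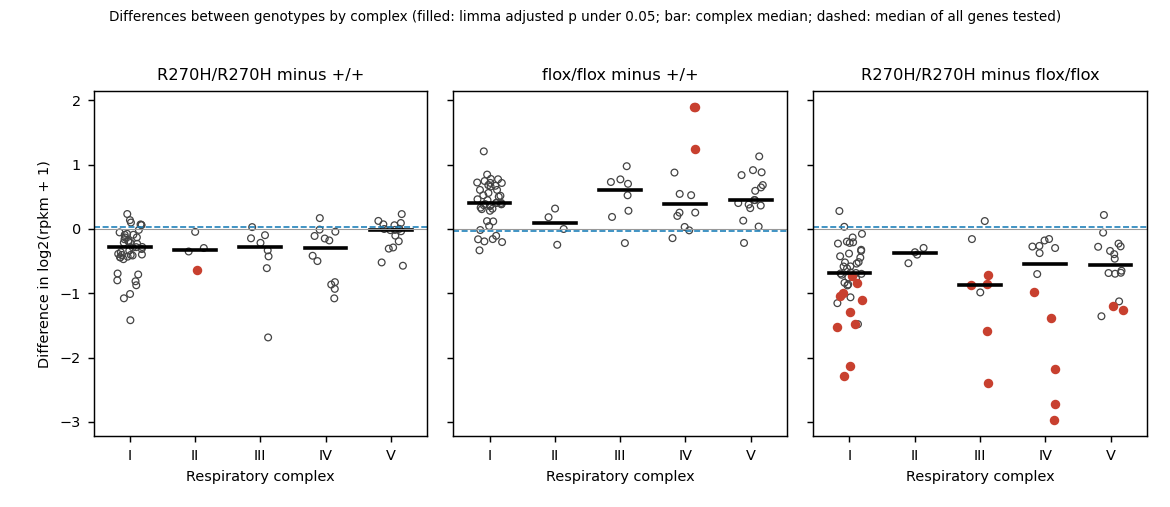
Each point is a gene of the respiratory complex on the x axis, and the y axis gives the difference of genotype means of log2(rpkm + 1). Filled points passed the limma test, black bars are complex medians and the dashed line is the median of all genes tested. The bar for complex V lies at -0.02 in the comparison of Trp53 R270H/R270H with Trp53 +/+, while those of complexes I to IV lie between -0.32 and -0.27.

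Complex I, the largest complex, has 7 core subunits that carry the flavin and iron-sulfur clusters, with accessory subunits around them. Its 42 genes comprised those 7, 29 accessory subunits and 6 assembly factors. Against Trp53 +/+ their median difference was -0.29 in the mutant and 0.40 in Trp53 flox/flox, with 0 genes called in either comparison. For the mutant against Trp53 flox/flox the median was -0.69, and 10 of 42 genes (23.8%) were called lower, against 11.0% of all genes. These were 8 of the 29 accessory subunits (27.6%, median -0.70), 1 of the 7 core subunits (14.3%, median -0.23) and 1 of the 6 assembly factors (16.7%).

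The core subunit called was Ndufs7, which holds the last iron-sulfur cluster before ubiquinone. Ndufs7 was at 46.9 and 41.5 rpkm in Trp53 +/+, 91.1 and 58.6 in Trp53 flox/flox and 11.2 and 22.3 in the mutant. The genotypes did not overlap, and the mutant libraries were the lowest. Ndufs7 fell by 2.13 on the log2 scale against Trp53 flox/flox (SE 0.361, limma adjusted p = 0.0186), the Trp53 flox/flox mean being 4.47 times the mutant mean. Against Trp53 +/+ its difference was -1.42 (SE 0.361, limma adjusted p = 0.0633). The core subunits Ndufs3, Ndufs8, Ndufv1 and Ndufv2 had differences between the mutant and Trp53 flox/flox from -0.75 to -0.21, of which 0 passed. Ndufs1, the largest core subunit, was at 44.0 and 45.8 rpkm in Trp53 +/+, 31.9 and 39.4 in Trp53 flox/flox and 44.4 and 42.1 in the mutant. Ndufs1 was the one gene of the 82 with both mutant libraries above both Trp53 flox/flox libraries, with a difference of 0.28 between the mutant and Trp53 flox/flox (SE 0.129, limma adjusted p = 0.162).

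Among accessory subunits, Ndufb2 and Ndufb6 belong to the end of the membrane arm and Ndufa6 to the matrix arm. Ndufb2 was at 16.4 and 12.6 rpkm in Trp53 +/+, 41.7 and 28.5 in Trp53 flox/flox and 5.03 and 7.79 in the mutant. Its Trp53 flox/flox mean was 5.47 times the mutant mean, a log2 difference of -2.28 (SE 0.275, limma adjusted p = 0.00885), and neither comparison with Trp53 +/+ passed the test (limma adjusted p = 0.0634 and 0.0524). Ndufb6 was at 44.2 and 39.9, 91.8 and 49.5, and 19 and 29 rpkm in the same order of genotypes, and fell by 1.48 from Trp53 flox/flox to the mutant (SE 0.341, limma adjusted p = 0.0353). Ndufa6 was at 77.3 and 63.8, 132 and 103, and 30.9 and 51.5 rpkm, and fell by 1.52 (SE 0.277, limma adjusted p = 0.0216). In all 3 genes the genotypes kept apart, with Trp53 flox/flox highest and the mutant lowest. The 5 other accessory subunits called lower in the mutant against Trp53 flox/flox were Ndufab1 (the mitochondrial acyl carrier protein), Ndufb10, Ndufc1, Ndufc2 and Ndufs4. Ndufc2 was at 87.9 and 79.5, 123.5 and 83.9, and 35.2 and 47.6 rpkm, so that its mutant libraries stood apart from all others (difference from Trp53 flox/flox -1.29, SE 0.237, limma adjusted p = 0.0219). Ndufs4, whose loss in mice is known to cause a complex I disease, was at 38.3 and 38.1, 56.2 and 40.5, and 28.5 and 28.4 rpkm (difference -0.73, SE 0.167, limma adjusted p = 0.0354). Of the 6 assembly factors Ndufaf3 was called, at 7.38 and 6.93, 14.4 and 8.99, and 4.47 and 5.59 rpkm (difference -1.05, SE 0.236, limma adjusted p = 0.0338). Ndufaf1 was at 18.2 and 18, 16.2 and 15.2, and 16.4 and 15.8 rpkm, highest in Trp53 +/+ and with the other genotypes overlapping. These 7 genes were named after their values were seen.

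Complex II is the enzyme that joins the citric acid cycle to the respiratory chain, and its 4 subunits are all nuclear. Its catalytic subunit was the one gene that fell in the mutant against Trp53 +/+. Sdha, the flavoprotein that oxidizes succinate, was at 154 and 165 rpkm in Trp53 +/+, 143 and 125 in Trp53 flox/flox and 105 and 98.1 in the mutant. The mutant libraries were lowest and Trp53 +/+ highest, without overlap, so Sdha did not have the order seen in 32 of the 82 genes. Sdha fell by 0.65 on the log2 scale in the mutant against Trp53 +/+ (SE 0.116, limma adjusted p = 0.0301). This call was lost when either Trp53 +/+ or either mutant library was left out, as were most or all calls over all genes in that comparison. The differences of Sdha of -0.25 between Trp53 flox/flox and Trp53 +/+ and of -0.40 between the mutant and Trp53 flox/flox did not pass (limma adjusted p = 0.195 and 0.0608).

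The other 3 subunits of complex II did not pass the test in any comparison. Sdhb, the iron-sulfur subunit, was at 84.8 and 84.0 rpkm in Trp53 +/+, 124 and 73.9 in Trp53 flox/flox and 60.5 and 71.9 in the mutant. Sdhc, a membrane anchor, was at 91.2 and 93.5, 105 and 81.3, and 73.6 and 76.4 rpkm. In both genes the mutant was below every other library, and the Trp53 flox/flox libraries lay on either side of Trp53 +/+. Sdhd, the other anchor, was at 151 and 140.4, 221 and 149, and 139 and 143 rpkm, and the mutant overlapped Trp53 +/+. Of the 5 complexes, complex II had the smallest median difference between Trp53 flox/flox and Trp53 +/+ (0.09), and its median between the mutant and Trp53 flox/flox was -0.38.

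Complex III passes electrons from ubiquinol to cytochrome c. Its median difference between the mutant and Trp53 flox/flox was -0.87, the largest of the 5 complexes. In that comparison 5 of its 8 genes (62.5%) were called lower, against 11.0% of all genes. Uqcrq, a small subunit that contacts cytochrome b, was at 53.5 and 44.3 rpkm in Trp53 +/+, 90.6 and 70.2 in Trp53 flox/flox and 9.24 and 22.2 in the mutant. The 3 genotypes did not overlap. Its Trp53 flox/flox mean was 5.11 times the mutant mean (log2 difference -2.39, SE 0.401, limma adjusted p = 0.0184). Its difference of -1.69 from Trp53 +/+ was the largest of any of the 82 genes in that comparison and did not pass (SE 0.401, limma adjusted p = 0.0555). Uqcr11, the smallest subunit, was at 38.6 and 34.3, 101 and 51.7, and 18.1 and 30.3 rpkm, and fell by 1.58 from Trp53 flox/flox to the mutant (SE 0.383, limma adjusted p = 0.0395).

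The other 3 complex III genes called lower in that comparison, named after their values were seen, were Uqcrb, Uqcrc1 and Uqcrfs1, the Rieske iron-sulfur protein. The differences of these 3 were between -0.88 and -0.71 (limma adjusted p between 0.0249 and 0.0490). Uqcrc1 was at 138 and 149, 189 and 161, and 98.5 and 115 rpkm, and the 3 genotypes did not overlap. The most abundant genes of the complex did not separate the mutant from Trp53 flox/flox. Uqcrh, a hinge subunit, was at 182 and 173 rpkm in Trp53 +/+, 259 and 157 in Trp53 flox/flox and 178 and 183 in the mutant. Uqcrc2, a core protein paired with Uqcrc1, was at 186 and 189.7, 175 and 148, and 182 and 169 rpkm. Their differences between these genotypes were -0.16 and 0.12 (limma adjusted p = 0.637 and 0.470).

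Complex IV, cytochrome c oxidase, held the largest differences of the 82 genes between the mutant and Trp53 flox/flox, in Cox8a and Cox6a1. Cox8a, the smallest subunit, was at 69.4 and 72.1 rpkm in Trp53 +/+, 275 and 257 in Trp53 flox/flox and 23.9 and 45.2 in the mutant. Unlike most of the 82 genes, Cox8a had nearly equal values in both Trp53 flox/flox libraries. It rose by a log2 difference of 1.90 in Trp53 flox/flox against Trp53 +/+ (SE 0.291, limma adjusted p = 0.0262) and fell by 2.98 in the mutant against Trp53 flox/flox (SE 0.291, limma adjusted p = 0.00530), a ratio of means of 7.70. Cox6a1, a regulatory subunit, was at 90.2 and 78.2, 448 and 222, and 36.0 and 61.0 rpkm. It rose by 1.90 in Trp53 flox/flox (SE 0.403, limma adjusted p = 0.0452) and fell by 2.72 in the mutant against Trp53 flox/flox (SE 0.403, limma adjusted p = 0.0142). Cox5b, a zinc-binding subunit on the matrix side, was at 52.3 and 49.0, 146 and 101, and 23.2 and 29.3 rpkm. It rose by 1.25 (SE 0.211, limma adjusted p = 0.0298) and fell by 2.18 (SE 0.211, limma adjusted p = 0.00527) in the same comparisons. These 3 genes were apart in all 3 genotypes, and against Trp53 +/+ their mutant differences of -1.08, -0.83 and -0.93 did not pass (limma adjusted p = 0.0729, 0.230 and 0.0501).

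Of the other complex IV genes, Cox7c and Cox5a were called lower in the mutant against Trp53 flox/flox. Cox7c was at 189.9 and 192 rpkm in Trp53 +/+, 358 and 211 in Trp53 flox/flox and 93.1 and 117 in the mutant, and fell by 1.39 (SE 0.272, limma adjusted p = 0.0253). Cox5a, named after its values were seen, was at 77.7 and 72.5, 175 and 109.7, and 64.1 and 75.3 rpkm. Its mutant libraries overlapped Trp53 +/+, so the difference of -0.99 (SE 0.238, limma adjusted p = 0.0395) came with higher Trp53 flox/flox values. The other 7 complex IV genes did not pass in any comparison. Cox4i1, the subunit with the most transcript, was at 392 and 391, 557 and 365, and 246 and 311 rpkm. Its mutant libraries were below all others. Cox6b1 was at 254 and 247, 388 and 231, and 240.1 and 247 rpkm. Cox7a2 was at 116 and 108, 181 and 98.4, and 109 and 113 rpkm. Cox7b was at 115 and 115, 138 and 92.7, and 99.4 and 103 rpkm. In these 4 genes, as in Cox6c and Cox7a2l, the Trp53 flox/flox libraries lay on either side of Trp53 +/+. Ndufa4, named for complex I but later placed in complex IV, was at 202 and 204, 359.5 and 244, and 232 and 224 rpkm, and was the one complex IV gene above Trp53 +/+ in both mutant libraries.

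**Figure D3:**
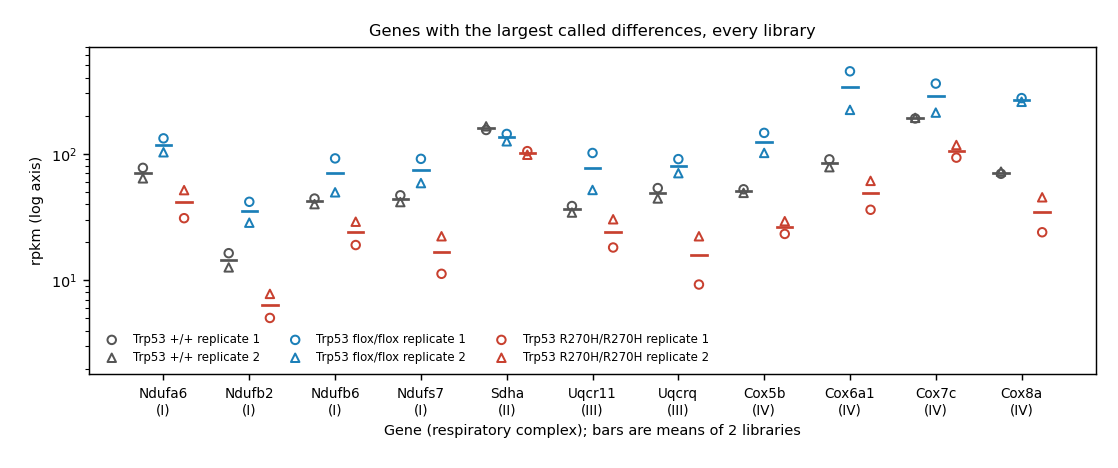
For each gene the circles and triangles give the rpkm of replicates 1 and 2 on a log axis, bars give means of the 2 libraries, and the letters under the symbols give the respiratory complex. In 10 of the 11 genes the Trp53 flox/flox mean (blue) lies above that of Trp53 +/+ (grey) and the mutant mean (red) below it, and in Sdha the blue mean lies between the others.

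Promoter sequence was examined for the 82 genes. RefSeq promoter windows on GRCm38.p6, from 250 bases before to 50 after the start of a gene, were found for 71 of the 82 genes. The 120 bases just before the start are shown for Cox8a and Cox6a1, which differed most, for Uqcr11, whose stretch holds marked letters, and for Sdha, which had another order of genotypes. They lie at chr19:7217617-7217736, chr5:115348959-115349078, chr10:80406822-80406941 and chr13:74350241-74350360, all on the minus strand. The genes themselves span chr19:7215158-7217616 (Cox8a), chr5:115345652-115348958 (Cox6a1), chr10:80402997-80406821 (Uqcr11) and chr13:74322255-74350240 (Sdha). Capitals mark the letters CCGGAAG or their reverse complement, the core to which the ETS factor GABP (whose DNA-binding subunit is Gabpa) is known to bind. The same stretches of Cox5b, Ndufb2, Ndufs7, Ndufa6, Ndufb6 and Cox7c, also named above for large differences, are not shown and held none of these letters.
Cox8a: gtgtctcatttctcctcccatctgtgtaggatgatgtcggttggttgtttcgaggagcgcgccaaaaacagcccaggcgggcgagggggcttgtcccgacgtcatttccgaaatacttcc
Cox6a1: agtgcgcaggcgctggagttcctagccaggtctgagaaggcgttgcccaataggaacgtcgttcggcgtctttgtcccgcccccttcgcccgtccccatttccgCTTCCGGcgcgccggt
Uqcr11: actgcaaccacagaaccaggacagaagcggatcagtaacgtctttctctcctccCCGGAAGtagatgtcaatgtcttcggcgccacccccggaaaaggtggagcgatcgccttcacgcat
Sdha: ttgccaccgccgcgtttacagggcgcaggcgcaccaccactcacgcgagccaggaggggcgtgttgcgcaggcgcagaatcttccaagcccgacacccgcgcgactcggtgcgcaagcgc

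Motifs of the factors NRF1, GABP (ETS) and YY1, known from respiratory gene promoters, were searched on both strands of the whole windows, and none of their letter strings contains another. CCGGAAG was found for 17 of 71 genes (23.9%), against 22.3% of the tested genes with a window and 9.93% of all genes with one. The NRF1 letters GCGCATGCG were found for 10 (14.1%), against 4.48% and 1.95%, and the YY1 letters AAGATGGC for 11 (15.5%), against 5.87% and 3.19%. Cox6a1 held the NRF1 letters further upstream, Cox8a held CCGGAAG and Uqcr11 the NRF1 letters at the start itself, where the printed stretch ends, and Sdha held no match. The median difference between the mutant and Trp53 flox/flox was -0.70 for the 17 genes with CCGGAAG and -0.68 for the 54 without. It was -0.70 for the 10 with the NRF1 letters and -0.68 for the 61 without, and -0.65 for the 11 with the YY1 letters and -0.68 for the 60 without. A match describes letters and not binding.

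Complex V differed from the others in 1 respect. Its 16 genes had a median of -0.02 in the mutant against Trp53 +/+, whereas the other complexes had medians between -0.32 and -0.27. This difference between complexes was not tested, and it did not hold for every part of complex V, as given below. Both mutant libraries were above both Trp53 +/+ libraries in 4 of the 16 genes (25%), against 44.2% of all genes. They were below both in 6 (37.5%), against 37.6% of all genes. Against Trp53 +/+ the complex V median in Trp53 flox/flox was 0.45, and between the mutant and Trp53 flox/flox it was -0.56. In the latter comparison 2 of the 16 genes (12.5%) were called lower, near the 11.0% of all genes. Atp5b, the catalytic beta subunit, was at 817 and 808 rpkm in Trp53 +/+, 1242 and 991 in Trp53 flox/flox and 854 and 836 in the mutant. Its mutant libraries were slightly above Trp53 +/+ and its Trp53 flox/flox libraries were higher still, and none of its differences (0.06, 0.45 and -0.39) passed the test.

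The 2 genes called were Atp5d, the delta subunit of the F1 part, and Atp5g3. Atp5d was at 105 and 96.3 rpkm in Trp53 +/+, 189.6 and 138 in Trp53 flox/flox and 57.9 and 78.1 in the mutant, and fell by 1.25 in the mutant against Trp53 flox/flox (SE 0.216, limma adjusted p = 0.0192). Atp5d was named after its values were seen. The c ring, which turns in the membrane, is made of 1 mature protein encoded by 3 genes. Atp5g1 was at 103 and 102, 212 and 122, and 93.8 and 107 rpkm. Atp5g2 was at 286 and 255, 425 and 290.4, and 199.8 and 238 rpkm. Atp5g3 was at 210.2 and 196, 471 and 312, and 152 and 181 rpkm. All 3 were highest in both Trp53 flox/flox libraries, and Atp5g3 fell by 1.20 in the mutant against Trp53 flox/flox (SE 0.223, limma adjusted p = 0.0225). The 4 genes of the peripheral stalk, Atp5f1, Atp5h, Atp5j and Atp5o, had mutant differences from Trp53 +/+ between -0.10 and 0.12, and 0 of them passed in any comparison. The 3 Fo accessory genes Atp5j2, Atp5k and Atp5l had differences of 0.00 to 0.23. The same mutant differences from Trp53 +/+ had a median of -0.19 over the 5 F1 genes and -0.29 over the 3 c ring genes. The median of complex V near 0 thus did not hold for these parts. Atp5j2 was at 27.7 and 26.1, 80.5 and 31.2, and 31.0 and 32.3 rpkm, so that its high Trp53 flox/flox mean came from replicate 1. Atp5e, the epsilon subunit of F1, was at 67.0 and 65.8, 171 and 83.1, and 35.3 and 59.8 rpkm, with the same order of genotypes as Cox8a (difference between the mutant and Trp53 flox/flox -1.36, SE 0.404, limma adjusted p = 0.0638). Atp5j2 and Atp5e were named after their values were seen. The low-level gene Atp5s was at 5.81 and 6.05, 5.84 and 4.20, and 6.02 and 5.84 rpkm, with no separation of genotypes.

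The 82 genes share features that the choice by symbol did not use, and the libraries differed along these features. Their transcripts were short, with a median of 809 nt against 2862 nt for all genes tested, and 49 of 82 (59.8%) were under 1000 nt against 7.04%. Median GC content was 51.4% against 50.2%. Among all 694 tested genes under 1000 nt, the median log2 difference from the Trp53 +/+ mean was 0.63 and 0.11 in the Trp53 flox/flox libraries and -0.26 and -0.09 in the mutant libraries, the same order as in the respiratory genes. The 49 respiratory genes under 1000 nt gave 0.91, 0.23, -0.38 and -0.13. Short genes of high GC content (55% or more) differed further, with 0.82, 0.27, -0.49 and -0.20 over 226 genes and 0.97, 0.25, -0.67 and -0.25 over the 17 respiratory genes among them.

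Counts of genes lower in the mutant against Trp53 flox/flox moved with length in the same way. Those of genes lower in the mutant against Trp53 +/+ did not do so within the 82 genes. Of 645 genes under 1000 nt that are not respiratory genes of this set, limma called 24.8% lower in the mutant against Trp53 flox/flox, compared with 32.7% of the 49 short respiratory genes and 18.2% of the 33 longer ones. Both mutant libraries were below both Trp53 +/+ libraries in 51.3% of those 645 genes, 63.3% of the short and 72.7% of the longer respiratory genes. Across the 82 genes the difference between Trp53 flox/flox and Trp53 +/+ correlated with log2 transcript length with r = -0.50 (Spearman's rho -0.52) and that between the mutant and Trp53 +/+ with r = 0.13 (rho 0.07), where the genes share libraries and are not independent points.

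**Figure D4:**
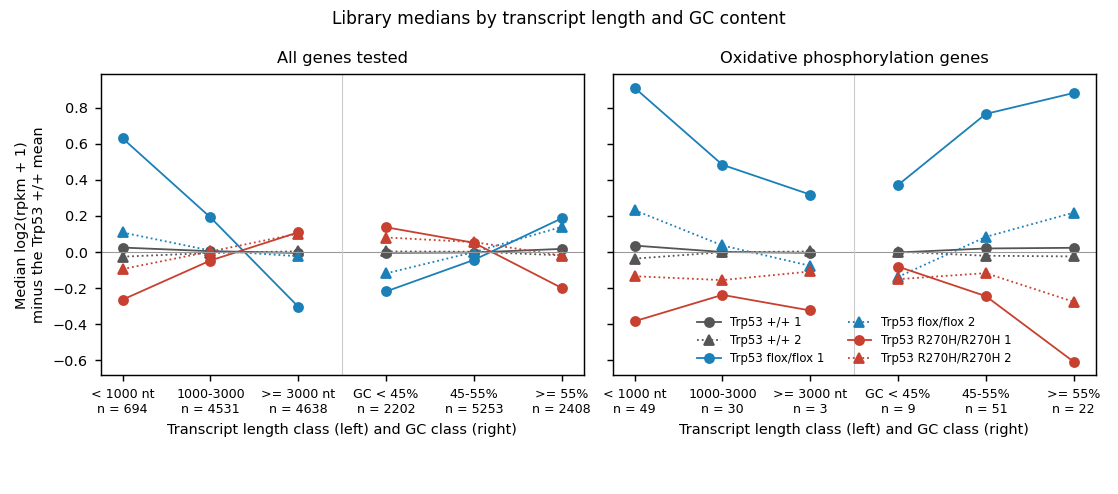
Points give the median over genes of log2(rpkm + 1) minus the Trp53 +/+ mean in each of the 6 libraries, by transcript length class and GC class, for all genes tested (left) and for the 82 genes (right), with n under each class. Trp53 flox/flox replicate 1 falls from 0.63 in the shortest to -0.30 in the longest class of all genes, and the 82 genes lie above it in each length class.

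When the trend with length and GC content was subtracted from every library, the median differences of the 82 genes shrank and kept their sign. In the mutant against Trp53 +/+ the split went from 14 positive and 68 negative differences to 33 positive and 49 negative. The median became -0.080 in the mutant against Trp53 +/+, 0.28 in Trp53 flox/flox against Trp53 +/+ and -0.32 in the mutant against Trp53 flox/flox, beside 0.04, 0.06 and -0.04 for all genes. All 22 genes called lower in the mutant against Trp53 flox/flox were called again, among 26 (14.8% of all genes), with 0 called higher (13.7% of all genes). Sdha was called again in the mutant against Trp53 +/+, among 7 lower (11.6% of all genes) and beside 2 higher, Ndufa11 and Ndufa4 (11.9% of all genes). Cox8a, Cox6a1 and Cox5b were again called higher in Trp53 flox/flox, among 13 (12.4% of all genes), and 1, Ndufv1, was called lower (10.5% of all genes). The corrected medians between the mutant and Trp53 +/+ were -0.11 for complex I, -0.28 for complex II, -0.12 for complex III, -0.11 for complex IV and 0.063 for complex V. The complex II value was the least altered, and complex V changed sign. Between the mutant and Trp53 flox/flox the complex IV median went from -0.54 to -0.091, near the -0.04 of all genes. The corrected medians of the other complexes lay between -0.53 and -0.19 there.

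Chromosome position also moved with some of these values. Of the 82 genes, 7 lie on chromosome 13, where the 351 other tested genes had a median difference of -0.32 in the mutant against Trp53 +/+, with 16.0% called lower. Sdha is one of these 7, with Cox7c, Ndufaf2, Ndufs4, Ndufs6, Uqcrb and Uqcrfs1, and the 7 had a median of -0.41. Cox6a1, Atp5j2 and Atp5k lie on chromosome 5, where the 653 other genes had a median of 0.15 in Trp53 flox/flox against Trp53 +/+. The part of chromosome number in these differences was not tested. Among the 72 genes on other chromosomes, limma called 17 (23.6%) lower in the mutant against Trp53 flox/flox (median -0.58), against 11.0% of all genes. It called 2 (2.78%) higher in Trp53 flox/flox against Trp53 +/+ (median 0.39), against 4.38%. In the mutant against Trp53 +/+ it called 0 (median -0.22), against 6.36% lower and 5.86% higher. There 12 of the 72 had an unadjusted limma p under 0.05, against 3209 of all 10042 genes. These shares of all genes cover every chromosome. How reads shared with the processed pseudogenes that many of these genes have were assigned is not given in the sources used here, so single values carry that uncertainty.

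Genes that build or control the respiratory chain were examined as 74 tested genes in 5 lists, namely subunits with other symbols, assembly factors, regulators of mitochondrial biogenesis, the citric acid cycle with its regulators, and p53-linked mitochondrial genes. Of these, 2 were called higher and 5 lower in the mutant against Trp53 +/+. Loss of p53 gave 3 higher and 4 lower against Trp53 +/+, and the mutant against Trp53 flox/flox 6 higher and 7 lower. As shares of the 74 genes these were 2.70% and 6.76%, 4.05% and 5.41%, and 8.11% and 9.46%, against 5.86% and 6.36%, 4.38% and 6.90%, and 13.6% and 11.0% of all genes. The medians of the 74 genes were -0.12, 0.03 and -0.20. Of the 5 subunits with other symbols, 5 had positive differences in Trp53 flox/flox against Trp53 +/+ (median 0.41), while the mutant against Trp53 +/+ gave 2 positive and 3 negative (median -0.0082) and 0 were called in any comparison. Cyc1, the cytochrome c1 of complex III, was at 73.1 and 75.4 rpkm in Trp53 +/+, 155 and 102 in Trp53 flox/flox and 70.4 and 75.8 in the mutant. Cycs, cytochrome c, was at 69.6 and 71.3, 109.6 and 77.7, and 75.8 and 69.8 rpkm.

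The copper chaperone Cox17, which supplies complex IV, was the one of 28 assembly factors called in the mutant against Trp53 +/+. Cox17 was at 40.2 and 36.1 rpkm in Trp53 +/+, 54.1 and 40.9 in Trp53 flox/flox and 15.7 and 18.7 in the mutant. It fell by 1.11 against Trp53 +/+ (SE 0.174, limma adjusted p = 0.0224) and by 1.41 against Trp53 flox/flox (SE 0.174, limma adjusted p = 0.00941). Surf1, another complex IV assembly factor, was at 27.0 and 24.5, 33.2 and 29.0, and 20.7 and 23.5 rpkm, and fell by 0.47 in the mutant against Trp53 flox/flox (SE 0.125, limma adjusted p = 0.0491) but did not pass against Trp53 +/+ (limma adjusted p = 0.311). Higd2a and Atpaf2 were also called lower in the mutant against Trp53 flox/flox, by differences of -0.87 and -0.61, and Acad9 and Tmem126b, which serve complex I assembly, were called higher, by 0.53 and 0.49. Higd2a, Acad9 and Tmem126b were named after their values were seen. Sco2, the p53 target named above, was listed at the floor in all 6 libraries, including Trp53 +/+, so it gave no information on the genotypes.

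Among regulators, Esrra, a nuclear receptor that activates respiratory genes, was at 9.51 and 9.48 rpkm in Trp53 +/+, 10.4 and 10.8 in Trp53 flox/flox and 4.26 and 5.50 in the mutant, and fell by 0.84 against Trp53 +/+ (SE 0.138, limma adjusted p = 0.0242). Tfb1m, which methylates mitochondrial ribosomal RNA, was at 11.1 and 10.8, 8.11 and 6.28, and 6.60 and 5.62 rpkm, and fell by 0.76 (SE 0.155, limma adjusted p = 0.0402). Gabpa went the other way, with 17.7 and 17.4, 19.8 and 22.9, and 27.4 and 25.2 rpkm, and rose by 0.56 in the mutant against Trp53 +/+ (SE 0.115, limma adjusted p = 0.0405). Tfam, the main mitochondrial transcription and packaging factor, was between 18.2 and 22.7 rpkm in all 6 libraries, with differences of 0.03, 0.02 and 0.02. Nrf1 was at 4.29 and 3.82, 5.84 and 5.93, and 4.78 and 5.14 rpkm, and no comparison passed. The coactivators Ppargc1a and Ppargc1b did not reach 4 rpkm, and Ppargc1a was listed at the floor in both mutant libraries against 2.20 and 2.63 rpkm in Trp53 +/+.

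The largest single difference of these lists was that of Pdk4, in the citric acid cycle list of 21 genes, which had a median of -0.14 with 1 gene called higher and 1 lower in the mutant against Trp53 +/+. Pdk4, a kinase that switches off pyruvate dehydrogenase, was at 9.77 and 10.2 rpkm in Trp53 +/+, 1.00 (the floor) and 2.32 in Trp53 flox/flox and 42.3 and 35.2 in the mutant. It rose by 1.85 in the mutant against Trp53 +/+ (SE 0.260, limma adjusted p = 0.0168) and fell by 2.09 in Trp53 flox/flox (SE 0.260, limma adjusted p = 0.0167), the reverse of the order of most respiratory genes. Suclg2, a subunit of succinyl-CoA synthetase, which makes the succinate that complex II oxidizes, was at 86.5 and 91.0, 67.2 and 62.5, and 63.3 and 61.7 rpkm. It fell by 0.50 in the mutant (SE 0.0965, limma adjusted p = 0.0360) and by 0.45 in Trp53 flox/flox (SE 0.0965, limma adjusted p = 0.0469).

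Of the p53-linked genes, Fdxr, the ferredoxin reductase that is a known p53 target, was at 8.86 and 8.46 rpkm in Trp53 +/+, 8.42 and 6.39 in Trp53 flox/flox and 3.23 and 4.82 in the mutant. It fell by 0.96 in the mutant against Trp53 +/+ (SE 0.207, limma adjusted p = 0.0451), and its difference in Trp53 flox/flox was -0.21 (SE 0.207, limma adjusted p = 0.492). Gls2, a glutaminase, was at 5.05 and 4.09, 7.62 and 9.0, and 5.42 and 6.38 rpkm, and rose by 0.74 in Trp53 flox/flox (SE 0.159, limma adjusted p = 0.0463). Aifm1, which helps import subunits of complex I, was at 41.2 and 41.6, 51.1 and 38.5, and 52.8 and 48.8 rpkm, and did not pass.

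The other genes of these lists called in Trp53 flox/flox against Trp53 +/+ were Atpaf2, an assembly factor of F1, and Pdk3, both 0.79 higher, and Pdk2 and the mitochondrial DNA helicase Peo1, which fell by 1.04 and 0.50. Their mutant values overlapped or lay nearer to Trp53 +/+.

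**Figure D5:**
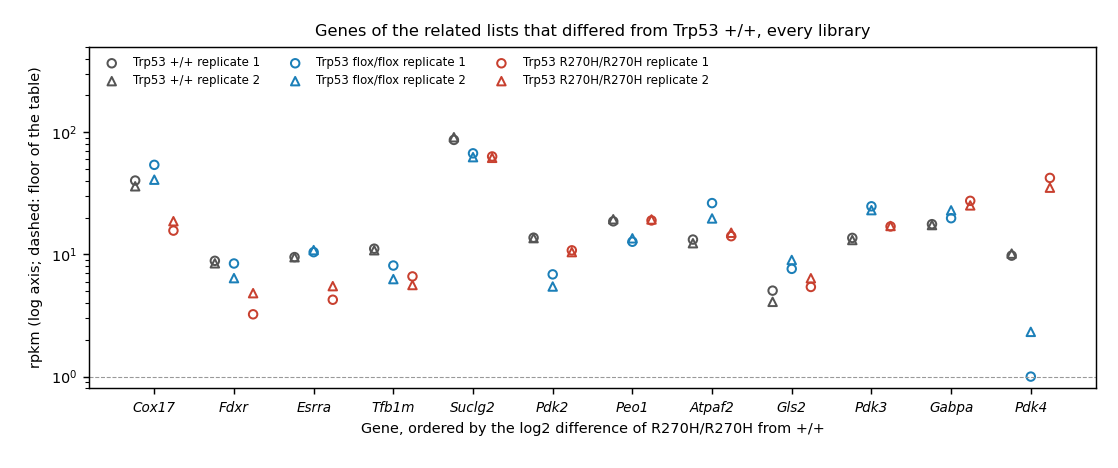
Circles and triangles give the rpkm of replicates 1 and 2 on a log axis for the 12 genes of the related lists called in a comparison with Trp53 +/+, ordered by the difference of the mutant, and the dashed line is the floor of the table at 1 rpkm. Cox17, Fdxr and Esrra at the left are lowest in Trp53 R270H/R270H (red), and Pdk4 at the right is highest there and lowest in Trp53 flox/flox (blue).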

How the data were processed

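Poly(A) RNA of 6 organoid libraries was measured, 2 for each Trp53 genotype. The authors mapped reads to mm10 with StrandNGS and deposited rpkm values per gene; its version, annotation and filters are not given in the sources used here. No deposited value is below 1. Genes that reached 4 rpkm in any library were kept, and log2(rpkm + 1) was fitted with limma 3.58.1 (lmFit, eBayes with trend) in R 4.3.3 over all 6 libraries without a block, two-sided, with Benjamini-Hochberg adjustment over 10042 genes at 0.05. Replicates come from different mice of a genotype. The 82 genes, the lists and the named genes were chosen with earlier results of these data known. Named were the 10 called genes with the largest differences in each direction and comparison, the most abundant gene of each complex, complex II, isoform families, genes at the filter, and genes of related lists called against Trp53 +/+. The values of 1 gene are not reported here.

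The length and GC correction, chosen after the data had been seen, subtracted from each library natural splines (4 degrees of freedom) of GC content and log2 length, fitted over the 9863 genes with both. They came from the GENCODE M21 transcript of median length among RefSeq-matched principal transcripts. Positions are from RefSeq on GRCm38.p6. The NRF1 motif was searched with 9 letters after a longer form had been tried. The code was tested on simulated data. Alternatives were other pseudocounts, filters, scalings, weights, blocks and libraries left out. Same-numbered libraries come from different mice, and their deviations correlated with r between -0.29 and 0.12, so the numbers were not taken as pairs.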

Additional observations from a re-analysis of the deposited data

How the results depend on the processing

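Calls depended on the spread assumed for the Trp53 flox/flox libraries. When a library was left out, the remaining one of its genotype was assumed to vary like the other groups; the number of the 82 genes called then ranged, for the mutant against Trp53 +/+, from 0 to 2 higher and 0 to 32 lower, for Trp53 flox/flox against Trp53 +/+ from 0 to 67 higher and 0 to 11 lower, and for the mutant against Trp53 flox/flox from 0 to 2 higher and 1 to 77 lower. Calls over all genes moved with these: without Trp53 flox/flox replicate 2, which gave the 67 and the 77, 31.6% and 33.8% of all genes were called in those directions.

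For the mutant against Trp53 +/+ (0 higher, 1 lower), the 2 genotypes fitted alone gave 2 and 32 (31.2% and 25.7% of all genes). Lower calls were 43 with weights for each genotype (27.8% of all genes), 3 under median-of-ratios or upper-quartile scaling, 2 with a minimum of 1 rpkm, or of 4 rpkm in both libraries of any genotype, and 0 without a filter. For Trp53 flox/flox against Trp53 +/+ (3 higher), there were 0 without a filter or with weights (0.0498% and 0.349% of all genes) and 1 with the 2 genotypes alone (0.0896%). For the mutant against Trp53 flox/flox (22 lower), there were 2 without a filter, 1 with weights and 3 with the 2 genotypes alone (0.528%, 1.56% and 1.20% of all genes). The cause of these differences was not tested.

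A replicate block on the sample numbers gave 0 lower for the mutant against Trp53 +/+, 1 higher for Trp53 flox/flox and 10 lower for the mutant against Trp53 flox/flox (2.94%, 0.707% and 4.86% of all genes), and with the mutant's numbers exchanged 6, 5 and 32 (5.31%, 3.76% and 10.9%). Under the block the calls of Sdha, of Cox6a1 and Cox5b in Trp53 flox/flox, and of Uqcr11, Ndufb6 and Cox7c in the mutant against Trp53 flox/flox were lost. The 74 genes of the related lists had 1 higher and 1 lower, 0 higher and 2 lower, and 2 higher and 2 lower in the 3 comparisons under the block. Of all genes these were 2.54% and 2.94%, 0.707% and 2.08%, and 6.65% and 4.86%.

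The length and GC correction gave 2 higher and 7 lower, 13 higher and 1 lower, and 0 higher and 26 lower; with the longest transcript, the definition used first, 2 and 6, 12 and 1, and 0 and 26; with the replicate block, 0 and 3, 7 and 0, and 0 and 18; and without Trp53 flox/flox replicate 1, 14 and 29, 27 and 12, and 10 and 34 (of all genes 34.4% and 28.8%, 28.0% and 22.6%, and 27.3% and 29.0%). In the related lists the correction over all 6 libraries gave 6 higher and 13 lower for the mutant against Trp53 +/+ (of all genes 11.9% and 11.6%). It gave 8 higher and 5 lower for Trp53 flox/flox against Trp53 +/+ (12.4% and 10.5%). For the mutant against Trp53 flox/flox it gave 5 higher and 12 lower (13.7% and 14.8%), of 74 genes each. Corrected medians that moved were those of all 82 genes and complexes I, III, IV and V in the mutant against Trp53 +/+ (-0.080, -0.11, -0.12, -0.11 and 0.063) and against Trp53 flox/flox (-0.32, -0.33, -0.53, -0.091 and -0.19).

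Without single libraries, the median differences of all 82 genes and of complexes I to V ranged as follows. For the mutant against Trp53 +/+ they were -0.31 to -0.15, -0.37 to -0.16, -0.40 to -0.25, -0.41 to -0.23, -0.36 to -0.24 and -0.097 to 0.022. For Trp53 flox/flox against Trp53 +/+ they were 0.11 to 0.74, 0.094 to 0.74, -0.19 to 0.37, 0.27 to 0.87, 0.021 to 0.76 and 0.17 to 0.80. For the mutant against Trp53 flox/flox they were -0.96 to -0.32, -0.97 to -0.39, -0.57 to -0.14, -1.19 to -0.56, -0.85 to -0.25 and -0.89 to -0.19. The 14 largest calls among the 82 genes were followed one by one under the smaller pseudocount, median-of-ratios scaling, both blocks, each library left out and the length and GC correction: 103 held, 51 were lost and 0 changed sign. Differences that were not called could change sign, as those of Sdhb, Cox4i1 and Uqcrh between Trp53 flox/flox and Trp53 +/+ did without Trp53 flox/flox replicate 1. Library depth was not determined, so counting error could not be given.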
